A study of Homo sapiens with 8 samples.

Results

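The genes of the potassium channels, voltage-gated calcium channels, transient receptor potential (TRP) channels and PIEZO channels were followed in endothelial cells made from human induced pluripotent stem cells. Members were the protein-coding rows of the deposited count table whose symbols carry the family names KCN, CACNA, CACNB, CACNG, TRPA, TRPC, TRPM, TRPV or PIEZO. The rule gave 127 genes of the 30386 rows, of which 16828 are protein-coding. They were grouped into 9 classes by symbol, and pore-forming subunits were kept apart from the accessory subunits that bind them.

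RNA sequencing of poly-A selected RNA compared 4 samples of endothelial cells (iEC) with 4 samples of cells labelled as retinal endothelial cells (iREC). All 8 samples derive from the established human line WTC-TJP1 of such stem cells and were taken at passage 1. The labels give the letters C, D, E and F in each group and state no treatment, and they describe the iREC as a matched differentiation from that same line. A difference here is therefore between differentiations of 1 cell line. Nothing in the labels says that the letters are separate cultures or differentiations, so the p-values measure only the spread between these samples, which may be technical.

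Ion channels are pores in the membrane that open to voltage, ligands, calcium or stretch. In endothelium, potassium channels such as KCNJ2 and KCNN4 hold the membrane potential negative, which increases the driving force for calcium entry. Calcium comes in through TRP, PIEZO and store-operated channels, and PIEZO1 and TRPV4 are known there as sensors of flow and stretch. Voltage-gated potassium and calcium channels are better known from neurons and muscle, where accessory subunits set their gating and traffic to the membrane.

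Libraries held 14877502 to 16971865 counts in the iEC samples and 13739364 to 15987839 in the iREC samples. The floor of 3 counts used here equalled 0.178 to 0.215 and 0.183 to 0.214 CPM, the count scaled to sequencing depth. Intervals and floors cover counting error only. The 7 endothelial markers checked were present in every sample, with a summed level of 6124 to 8066 CPM in iEC and 3552 to 7841 CPM in iREC. Single markers moved both ways. Means in iEC and iREC were 2233 and 754 CPM for PECAM1, 1351 and 799 for CDH5, and 365 and 634 for CLDN5. Sample iREC F held the lowest endothelial sum, and it held the highest sums of the mural and epithelial lists. Between 16753 and 18138 genes lay above the floor in iEC and between 18352 and 20334 in iREC.

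Members above the floor were more numerous in every iREC sample than in any iEC sample. The iEC samples C, D, E and F had 67, 64, 59 and 54 of the 127 genes above 3 counts, and the iREC samples had 78, 75, 81 and 85. By group, 42 members were above the floor in all 4 iEC samples and 56 in all 4 iREC samples. These sets shared 36 genes, which is the number above the floor in all 8 samples, while 19 members were above it in none. Over the whole table the corresponding numbers of genes were 15050 and 15817, so the iREC libraries held more genes above the floor in general.

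**Figure D1:**
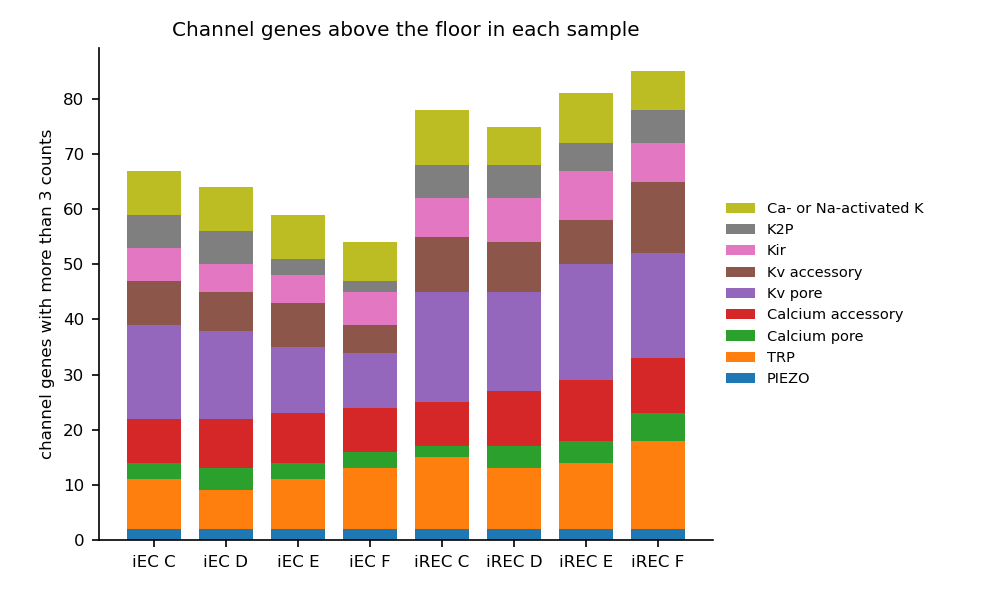
Number of channel genes with more than 3 counts in each of the 8 samples (y axis), stacked by channel class; bars are single samples. The iEC bars reach 54 to 67 genes and the iREC bars 75 to 85.

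Of the 127 members, 51 had enough counts to be tested and 76 did not. With edgeR's quasi-likelihood test and a Benjamini-Hochberg adjusted p under 0.05 over all 15330 genes tested, 25 of the 51 were called, or 49.0%, against a background of 25.0% of all genes tested. The split was 17 higher in iREC, 33.3% against a background of 13.2%, and 8 lower, 15.7% against 11.7%. The samples of the groups did not overlap in CPM for 23 of the 51 tested members, 45.1% against 29.1% of all genes tested. Their median log2 fold change (iREC over iEC) was 0.46, beside 0.020 for all genes tested. Of the 25 called members, 11 met the count filter in the samples of either group, and 14 met it only in the group where they were high. KCNK3, KCNK5, KCNK17, KCNMB1, KCNIP1, KCNIP4, KCNH7, KCNQ3, TRPC4 and CACNA2D3 met it through iREC, and KCNF1, KCNG1, CACNA2D4 and CACNG6 through iEC. Their presence among the called genes follows in part from the filter, so the shares describe the tested members and not the families.

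The classes differed in what was called. All 4 tested 2-pore-domain (K2P) genes, 4 of 6 tested accessory genes of the voltage-gated potassium (Kv) channels and 3 of 6 calcium- or sodium-activated potassium genes were higher in iREC, and none of these classes had a called gene that was lower. The background over all genes tested was 13.2% called higher and 11.7% called lower. Of the called genes in these classes, KCNK3, KCNK5, KCNK17, KCNIP1, KCNIP4 and KCNMB1 met the count filter through iREC only. Their direction follows in part from the filter. Kv pore genes went both ways, with 3 higher, 2 lower and 5 not called of 10 tested. Accessory genes of the calcium channels also went both ways, with 2 higher, 4 lower and 2 not called of 8 tested. None of the 5 tested inward rectifier (Kir) genes or the 3 tested calcium pore genes passed in edgeR. Unadjusted edgeR p values of the Kir genes were 0.0202 for KCNJ15, 0.0283 for KCNJ6, 0.0368 for KCNJ12 and 0.0569 and 0.858 for the others. Those of the calcium pore genes were 0.285 to 0.348. DESeq2 called 2 of these 5 Kir genes, KCNJ6 and KCNJ15, and 0 of the 3 calcium pore genes. Its background was 22.4% of the genes it tested. The Kir gene KCNJ3 lay below the count filter, with 0 counts in every iEC sample and 11, 6, 7 and 2 in iREC. It was called higher by DESeq2 (Benjamini-Hochberg adjusted p = 0.00317) and by edgeR with no filter (0.0151). In the TRP class 1 of 7 was higher and 1 lower. Of the 2 PIEZO genes, 1 was lower. No class was tested as a set.

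**Figure D2:**
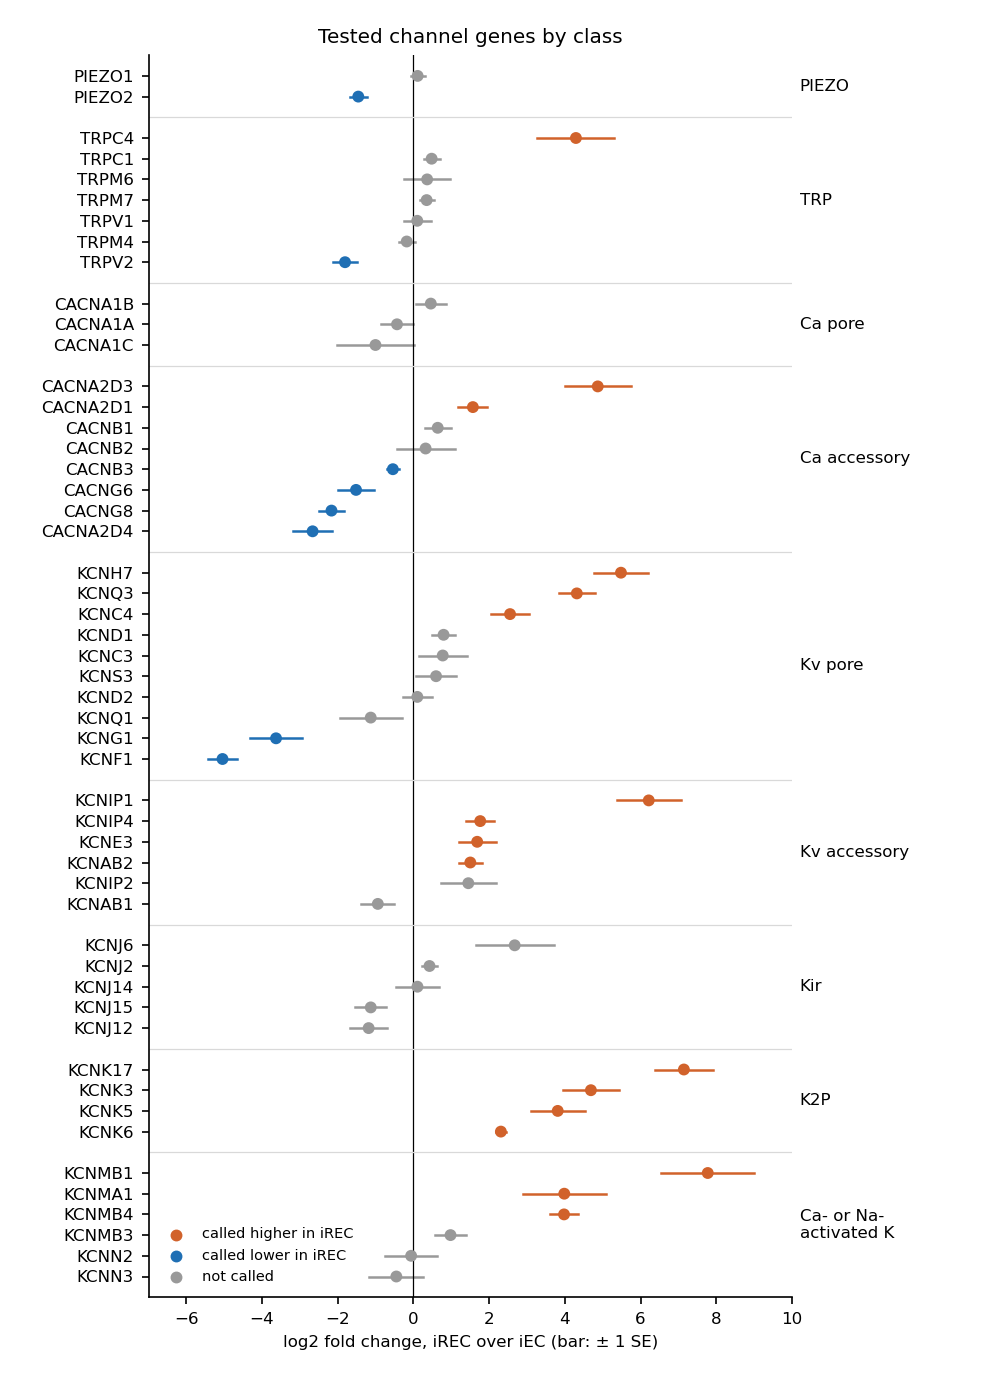
Log2 fold change of iREC over iEC (x axis) with 1 standard error for the 51 tested channel genes, grouped by class (rows); orange marks genes called higher in iREC, blue lower and grey not called. The 4 K2P genes lie to the right of 0, the 5 Kir genes are grey, and the calcium accessory and Kv pore genes lie on both sides.

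The PIEZO proteins are very large cation channels opened directly by membrane tension. PIEZO1 (chr16:88715338-88785220, GRCh38, minus strand) measured 217, 256, 277 and 351 CPM in iEC samples C, D, E and F and 319, 248, 256 and 365 CPM in iREC. The groups overlapped, and the log2 fold change was 0.11 ± 0.18 (SE; edgeR, Benjamini-Hochberg adjusted p = 0.700). Its sign turned without iEC C and without iREC F. PIEZO1 had the highest level per kilobase of gene length among the members in both groups, 24.4 ± 5.01 CPM per kb in iEC and 26.3 ± 4.90 in iREC (SD, n = 4).

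PIEZO2 (chr18:10666483-11148762), the relative best known from touch and proprioceptive neurons, was lower in iREC. It measured 163, 254, 132 and 202 CPM in iEC and 65.2, 61.1, 91.8 and 55.7 CPM in iREC, or 188 ± 52.7 against 68.4 ± 16.05 (SD, n = 4). Every iREC sample lay below every iEC sample, a 2.75-fold lower mean (log2 fold change -1.46 ± 0.23 SE, edgeR, Benjamini-Hochberg adjusted p = 0.00183). Per kilobase, PIEZO2 stood at 0.574, 0.759, 0.365 and 0.439 of the PIEZO1 level in the iEC samples and at 0.156, 0.188, 0.274 and 0.116 in the iREC samples. The ratios did not overlap between the groups. Both genes have short antisense transcripts over parts of their exons. The libraries keep strand, since dUTP was used for the second cDNA strand, but whether counting used it is not given in the sources used here, so reads of a gene and of an antisense partner cannot be told apart. For PIEZO1 the largest exonic overlap was with AC138028.4, 12.6% of its exonic bases, and that partner was itself listed at 1.22 CPM in iEC and 2.10 CPM in iREC.

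TRP channels pass calcium and sodium in response to heat, osmotic stress, lipids and receptor signalling. TRPV2 (chr17:16415542-16437003), a calcium-permeable member, was lower in iREC. It measured 31.5, 33.8, 57.3 and 76.7 CPM in iEC and 17.8, 10.6, 10.7 and 17.8 CPM in iREC. The groups did not overlap, and the mean was 49.8 ± 21.4 CPM in iEC against 14.2 ± 4.11 in iREC (SD, n = 4). The log2 fold change was -1.81 ± 0.33 (SE; edgeR, Benjamini-Hochberg adjusted p = 0.00378). Among TRP genes TRPV2 was the one with the highest level per kilobase in iEC, 14.6 CPM per kb, and in iREC that place went to TRPM4 at 5.24 CPM per kb.

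TRPC4 (chr13:37636636-37870425), a receptor-operated channel, was the TRP gene called higher. It measured 0.455, 0.0632, 1.18 and 2.36 CPM in iEC and 3.99, 19.4, 6.29 and 49.6 CPM in iREC. The groups did not overlap, but the iREC samples were widely spread (log2 fold change 4.29 ± 1.02 SE, edgeR, Benjamini-Hochberg adjusted p = 0.0138). Without iREC F the fold change was 3.29 with an adjusted p of 0.0223 in edgeR, without iEC F it was 5.08, and limma-voom gave an adjusted p of 0.0575.

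The other tested TRP genes did not pass. TRPM4, which is opened by calcium and carries sodium, measured 30.2 to 46.1 CPM in iEC and 22.1 to 41.3 CPM in iREC (log2 fold change -0.18, edgeR, Benjamini-Hochberg adjusted p = 0.580). TRPM7, a channel fused to a kinase that admits magnesium, was at 49.2 ± 12.6 against 62.6 ± 6.02 CPM, and TRPC1 at 8.78 ± 0.966 against 12.3 ± 2.79 CPM (SD, n = 4), with edgeR Benjamini-Hochberg adjusted p values of 0.202 and 0.130. In all 3 of these genes the groups overlapped.

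TRPV4, a sensor of osmotic and shear stimuli in vessels, was close to the floor. It had 5, 4, 4 and 9 counts in the iEC samples and 11, 8, 11 and 15 in the iREC samples. That is above the floor in all 8 samples but under the minimum for the main test. The counts of iEC F and iREC D overlapped, and an edgeR fit with no filter gave a Benjamini-Hochberg adjusted p of 0.312.

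K2P channels carry the background potassium current that sets the resting potential. KCNK6 (chr19:38319844-38332076) measured 17.7, 14.6, 14.4 and 17.04 CPM in iEC and 91.5, 69.9, 76.6 and 78.0 CPM in iREC. The groups were far apart relative to their spread, 15.9 ± 1.66 against 79.0 ± 9.02 CPM (SD, n = 4). This was a 4.96-fold higher mean (log2 fold change 2.31 ± 0.14 SE, edgeR, Benjamini-Hochberg adjusted p = 1.66e-05). KCNK6 was the K2P gene with the highest level per kilobase in both groups, 2.58 CPM per kb in iEC and 12.8 in iREC.

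KCNK17 (chr6:39299001-39314553), an alkaline-activated member, had 0, 5, 0 and 0 counts in the iEC samples and 252, 140, 206 and 167 in the iREC samples. The ratio of summed counts, scaled for library size, was 156 (exact 95% interval 66.5 to 481), and edgeR gave a Benjamini-Hochberg adjusted p of 0.000267. All 5 iEC counts came from iEC D, and without it the iREC mean was at least 64.7-fold higher than the floor of 3 counts in an average iEC library. At 5.76 CPM per kb only KCNK6 among the K2P genes was more abundant in iREC.

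KCNK3 (chr2:26692690-26733420), an acid-sensitive channel, had 1, 3, 0 and 2 counts in iEC and 24, 35, 86 and 23 in iREC, a ratio of 28.5 (exact 95% interval 12.8 to 78.8; edgeR, Benjamini-Hochberg adjusted p = 0.00176). KCNK5 (chr6:39188973-39229450), its alkaline-sensitive relative and a neighbour of KCNK17 on chromosome 6, had 5, 3, 0 and 1 counts in iEC and 14, 38, 46 and 33 in iREC, a ratio of 14.8 (exact 95% interval 7.58 to 33.1; edgeR, Benjamini-Hochberg adjusted p = 0.00437). Neither gene overlapped between the groups, and both were low in iREC, at 0.435 and 0.572 CPM per kb. For KCNK5 the fitted log2 fold change was 3.81 with all samples and 4.51 without iEC C. The other 9 K2P members were not tested. Among them KCNK1 lay the other way, with 4, 6, 14 and 4 counts in iEC, all above the floor, and 3, 0, 0 and 1 in iREC, all at or under it. DESeq2, which applied no such filter, gave KCNK1 a Benjamini-Hochberg adjusted p of 0.0725.

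Among K2P genes, KCNK3, KCNK5 and KCNK17 met the count filter through iREC only, so their shared direction follows in part from the filter. The promoters of the tested K2P genes are printed because these genes were called in the same direction. For comparison, those of KCNF1, the gene with the largest fall, and PIEZO1, which did not pass, are added. Each is the 250 bases before the start of the gene in RefSeq on GRCh38.p14, 5′ to 3′ on the strand of the gene, with capitals marking a match on either strand to the TATA box motif TATAAA, to the CCAAT motif of that name or to a CArG box, the core of the serum response element.
KCNK3 (chr2:26692472-26692721, plus strand): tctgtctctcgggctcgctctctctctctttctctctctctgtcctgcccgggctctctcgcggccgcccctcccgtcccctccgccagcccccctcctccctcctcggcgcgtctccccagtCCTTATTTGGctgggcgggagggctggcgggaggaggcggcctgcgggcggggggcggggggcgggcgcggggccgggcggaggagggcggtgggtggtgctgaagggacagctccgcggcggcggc
KCNK5 (chr6:39229476-39229725, minus strand): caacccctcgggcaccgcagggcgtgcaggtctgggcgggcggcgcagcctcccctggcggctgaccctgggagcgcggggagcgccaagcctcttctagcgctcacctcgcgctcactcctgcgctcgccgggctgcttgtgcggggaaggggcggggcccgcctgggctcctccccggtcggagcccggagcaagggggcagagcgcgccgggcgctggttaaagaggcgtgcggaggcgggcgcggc
KCNK6 (chr19:38319595-38319844, plus strand): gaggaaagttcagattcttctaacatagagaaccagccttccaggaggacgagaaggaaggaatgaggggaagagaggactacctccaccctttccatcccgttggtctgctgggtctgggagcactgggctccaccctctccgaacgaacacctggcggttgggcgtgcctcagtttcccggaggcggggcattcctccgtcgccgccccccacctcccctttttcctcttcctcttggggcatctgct
KCNK17 (chr6:39314420-39314669, minus strand): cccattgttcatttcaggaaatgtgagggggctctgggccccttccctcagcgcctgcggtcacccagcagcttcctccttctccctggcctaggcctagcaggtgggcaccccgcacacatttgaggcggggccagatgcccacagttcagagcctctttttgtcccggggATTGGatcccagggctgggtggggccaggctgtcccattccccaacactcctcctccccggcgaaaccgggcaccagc
KCNF1 (chr2:10911684-10911933, plus strand): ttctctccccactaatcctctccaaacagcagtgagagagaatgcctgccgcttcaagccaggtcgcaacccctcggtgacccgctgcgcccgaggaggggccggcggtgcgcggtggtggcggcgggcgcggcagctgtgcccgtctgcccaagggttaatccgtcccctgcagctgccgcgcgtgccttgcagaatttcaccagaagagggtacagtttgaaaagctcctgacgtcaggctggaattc
PIEZO1 (chr16:88785221-88785470, minus strand): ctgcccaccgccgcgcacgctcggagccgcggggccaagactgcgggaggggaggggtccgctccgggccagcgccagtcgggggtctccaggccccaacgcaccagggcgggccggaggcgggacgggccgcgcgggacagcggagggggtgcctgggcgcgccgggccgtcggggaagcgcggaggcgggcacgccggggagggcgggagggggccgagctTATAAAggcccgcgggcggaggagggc

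The K2P promoters differed among themselves in composition. Their GC contents were 76.4% for KCNK3, 77.2% for KCNK5, 59.6% for KCNK6 and 64.4% for KCNK17, beside a median of 58.0% over all 35116 windows of the RefSeq table. KCNF1 was at 63.6% and PIEZO1 at 81.2%. A CArG box lay 127 to 118 bases before the RefSeq start of KCNK3, a CCAAT match on the reverse strand 78 to 74 bases before that of KCNK17, and TATAAA 27 to 22 bases before that of PIEZO1. RefSeq and deposited starts can differ. The KCNK17 window begins at 39314420 and the deposited gene reaches 39314553, so the CCAAT match lies inside the deposited gene. The KCNK3 window ends at 26692721, past the deposited start at 26692690. For KCNK5 the bases after the RefSeq start were not found in a GENCODE transcript. KCNK5, KCNK6 and KCNF1 had no match in these windows. Over the whole table, TATAAA was found in 10.7% of windows, CCAAT in 32.0% and the CArG box in 1.16%. The table held 41 of the 51 tested members, in 67 windows, of which 4, 21 and 2 had the respective motif. No motif was shared by the 4 K2P promoters.

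Large-conductance calcium-activated (BK) channels are built from KCNMA1 pores and KCNMB accessory subunits. KCNMB4 (chr12:70366276-70434292), an accessory subunit best known from brain, was higher in iREC, at 91.7, 75.4, 87.3 and 52.5 CPM against 4.55, 8.41, 2.43 and 4.08 CPM in iEC. Its 15.8-fold higher mean was beyond the spread of either group (log2 fold change 3.98 ± 0.37 SE, edgeR, Benjamini-Hochberg adjusted p = 0.00012). At 15.7 CPM per kb only PIEZO1 among the 127 members was higher in iREC.

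KCNMB1 (chr5:170374671-170389677), the accessory subunit typical of smooth muscle, had 0 counts in every iEC sample and 61, 17, 19 and 11 in the iREC samples. Its mean of 1.77 CPM was at least 9.16-fold higher than the floor of 3 counts in an iEC library of average size, 0.193 CPM (edgeR, Benjamini-Hochberg adjusted p = 0.00594). The highest iREC sample was iREC C, which held 61 of the 108 counts, and without it the bound was at least 5.33-fold. The gene lies inside the span of KCNIP1, which was also called higher.

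The pore gene KCNMA1 (chr10:76869601-77638369) was at 1.11, 0.885, 2.78 and 7.73 CPM in iEC and 4.71, 38.8, 13.5 and 139 CPM in iREC. The lowest iREC sample lay under the highest iEC sample, so the groups overlapped (log2 fold change 3.98 ± 1.09 SE, edgeR, Benjamini-Hochberg adjusted p = 0.0264). The call did not hold in limma-voom (adjusted p = 0.121), nor in edgeR without iEC C, D or E or iREC D or F (adjusted p 0.0501 to 0.0754). Without iREC F the fold change was 2.61, and without iEC F 4.92. Per kilobase, KCNMA1 stood at 0.00702, 0.0704, 0.0211 and 0.363 of the KCNMB4 level in the iREC samples. Per kilobase the accessory transcript exceeded the pore transcript in all 8 samples. In CPM, which does not correct for length, the pore was higher in iEC E, iEC F and iREC F. The deposited length was 35644 bases for KCNMA1 and 4874 for KCNMB4. For KCNMA1 it equals all annotated exons merged, and a single transcript can be shorter. The order of pore and accessory transcript therefore depends on the length used.

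The small- and intermediate-conductance channels were not called. KCNN2 measured 2.61 ± 1.21 CPM in iEC and 2.51 ± 1.96 in iREC, and KCNN3 4.88 ± 4.12 and 3.56 ± 2.35 (SD, n = 4), with edgeR Benjamini-Hochberg adjusted p values of 0.960 and 0.686. KCNN4 (chr19:43766533-43781261), the intermediate-conductance channel of endothelium, had 4, 0, 7 and 3 counts in iEC and 4, 0, 0 and 0 in iREC. These are at or near the floor in every sample, and no difference in KCNN4 was detectable at this depth. KCNMB3 was not called, and 37.9% of its exonic bases overlap PIK3CA on the opposite strand.

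KCNJ2 (chr17:70168673-70180048), the strong inward rectifier of endothelium, measured 21.3, 19.2, 11.7 and 19.0 CPM in iEC and 22.2, 24.8, 26.4 and 21.9 CPM in iREC. The groups did not overlap, yet the difference did not pass (log2 fold change 0.42 ± 0.19 SE, edgeR, Benjamini-Hochberg adjusted p = 0.145). It was the most abundant Kir gene per kilobase in both groups, 3.19 CPM per kb in iEC and 4.27 in iREC. KCNJ15 and KCNJ12 had lower means in iREC, 1.36 against 2.99 CPM and 1.19 against 2.73 CPM, and KCNJ6 a higher one, 1.64 against 0.259 CPM. None of these 3 passed (edgeR, Benjamini-Hochberg adjusted p 0.0701, 0.107 and 0.0891). Each passed in some edgeR fits with a sample left out, KCNJ15 without iREC E (adjusted p = 0.0390), KCNJ12 without iREC F (0.0229) and KCNJ6 without iREC C (0.0399) or without iEC F (0.0488, with a log2 fold change of 3.87 instead of 2.67). Reads of KCNJ12 may be shared with its near-identical copy KCNJ18, so its value is uncertain.

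Among Kv pore genes, KCNC4 (chr1:110211343-110283100), a fast-inactivating channel, had the highest level per kilobase in iREC, 7.70 CPM per kb. It measured 47.4, 49.5, 15.6 and 19.0 CPM in iEC and 189.6, 202, 301 and 78.9 CPM in iREC. Every iREC sample was above every iEC sample, a 5.86-fold higher mean (log2 fold change 2.55 ± 0.49 SE, edgeR, Benjamini-Hochberg adjusted p = 0.00515).

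KCNQ3, a subunit of the neuronal M-current, was at 0.910, 0.379, 1.07 and 1.002 CPM in iEC and 24.9, 16.99, 19.0 and 6.55 CPM in iREC (log2 fold change 4.32 ± 0.48 SE, edgeR, Benjamini-Hochberg adjusted p = 0.000311). KCNH7 (chr2:162371407-162838730), of the ether-a-go-go-related family, had 0, 10, 2 and 1 counts in iEC and 168, 140, 175 and 106 in iREC, a ratio of 46.1 (exact 95% interval 26.8 to 87.2; edgeR, Benjamini-Hochberg adjusted p = 0.000646). Both genes were separated completely between the groups. iEC D held 10 of the 13 iEC counts of KCNH7, and without it the fitted log2 fold change was 7.04 instead of 5.48. An exonic overlap of 189 bases, 3.80% of KCNH7, is shared with GCA on the opposite strand, itself at a mean of 14.3 CPM in the iEC samples and 36.9 CPM in the iREC samples.

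KCNF1 and KCNG1 encode electrically silent subunits, which form no channel alone and modify other pores. KCNF1 (chr2:10911937-10914225) measured 16.97, 12.9, 9.12 and 9.88 CPM in iEC and 0.523, 0.428, 0.305 and 0.197 CPM in iREC. It was the most abundant Kv pore gene per kilobase in iEC, 5.34 CPM per kb, and 33.0-fold lower in iREC, at 0.159 (log2 fold change -5.04 ± 0.37 SE, edgeR, Benjamini-Hochberg adjusted p = 4.27e-05). KCNG1 (chr20:51003656-51023129) went from 31.4, 14.9, 32.9 and 19.2 CPM in iEC to 0.589, 2.14, 0.427 and 4.78 CPM in iREC (log2 fold change -3.63 ± 0.69 SE, edgeR, Benjamini-Hochberg adjusted p = 0.00468), or -4.56 without iREC F. Neither gene overlapped between the groups.

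**Figure D3:**
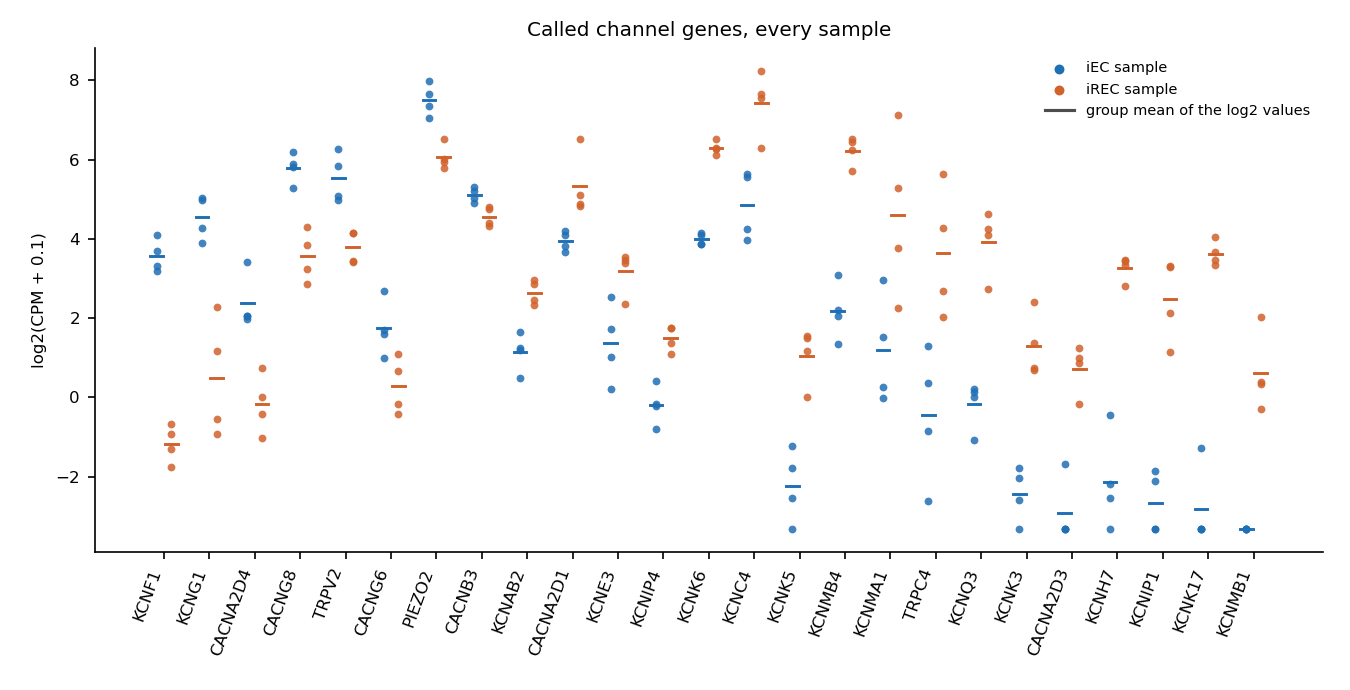
Level of the 25 called channel genes in each sample (y axis, log2 of CPM with the constant shown), ordered by fold change from KCNF1 to KCNMB1; points are samples, bars are group means of the log2 values. The 4 iEC and 4 iREC points are apart for 22 genes and overlap for KCNE3, KCNMA1 and CACNG6.

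Accessory Kv genes were called in 1 direction. KCNIP1 (chr5:170353487-170736632), a calcium-binding partner of KCND pores, had 2, 0, 3 and 0 counts in iEC and 149, 60, 163 and 32 in iREC, a ratio of 82.3 (exact 95% interval 35.0 to 255; edgeR, Benjamini-Hochberg adjusted p = 0.00083). Its relative KCNIP4 was at 1.24, 0.758, 0.474 and 0.787 CPM against 2.49, 3.28, 3.30 and 2.03 CPM (log2 fold change 1.76 ± 0.37 SE, edgeR, Benjamini-Hochberg adjusted p = 0.00743). Both were separated between the groups, and the fitted log2 fold change of KCNIP1 was 6.22 with all samples and 6.96 without iEC E. Of the KCND pores they bind, KCND2 had means of 4.45 and 4.78 CPM in iEC and iREC, and KCND1 of 3.02 and 5.25 CPM, and neither was called (edgeR, Benjamini-Hochberg adjusted p = 0.876 and 0.0949), though KCND1 passed without iEC D (edgeR, adjusted p = 0.0347).

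KCNAB2 (chr1:5991466-6101193), a cytoplasmic beta subunit with an oxidoreductase fold, measured 3.06, 2.21, 1.30 and 2.29 CPM in iEC and 4.91, 7.14, 7.69 and 5.37 CPM in iREC (log2 fold change 1.502 ± 0.31 SE, edgeR, Benjamini-Hochberg adjusted p = 0.00741). KCNE3, a membrane-spanning subunit that alters KCNQ pores, measured 3.19, 5.69, 1.07 and 1.93 CPM in iEC and 10.99, 10.5, 11.7 and 5.04 CPM in iREC. KCNAB2 did not overlap between the groups, while iREC F fell below iEC D for KCNE3 (log2 fold change 1.68 ± 0.49 SE, edgeR, Benjamini-Hochberg adjusted p = 0.0340). The KCNE3 call was lost without iEC C, E or F or iREC C, D or E (edgeR, adjusted p 0.0595 to 0.0816). KCNAB1 was not called (edgeR, adjusted p = 0.147). It had the highest mean per kilobase of the accessory Kv genes in iEC, 0.885 CPM per kb, through iEC F at 1.67, while KCNE3 was higher in iEC C and D. In iREC, KCNE3 had the highest mean, 2.60 CPM per kb.

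Voltage-gated calcium channels consist of a CACNA1 pore with alpha-2-delta (CACNA2D), beta (CACNB) and, in some tissues, gamma (CACNG) subunits. The pores were scarce. Their summed level over 8 genes was 0.362 to 0.764 CPM per kb in the iEC samples and 0.124 to 0.862 in the iREC samples, while the 12 accessory genes summed to 15.1 to 19.0 and 10.3 to 17.8 CPM per kb. CACNA1C (chr12:1970786-2697950), the L-type pore of heart and smooth muscle, had 178, 57, 75 and 84 counts in iEC and 0, 41, 11 and 140 in iREC. The groups overlapped widely, and the difference did not pass (log2 fold change -1.004 ± 1.02 SE, edgeR, Benjamini-Hochberg adjusted p = 0.510), with a range of -2.72 to -0.57 over the alternatives. Its mean per kilobase was the highest of the pores in both groups, but in iREC through iREC F at 0.480 CPM per kb, and CACNA1B was higher in iREC C and E.

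The alpha-2-delta genes moved in opposite directions. CACNA2D4 (chr12:1791957-1918836), the form used in photoreceptors, was at 4.03, 4.05, 3.85 and 10.7 CPM in iEC and 1.57, 0.642, 0.916 and 0.393 CPM in iREC (log2 fold change -2.66 ± 0.52 SE, edgeR, Benjamini-Hochberg adjusted p = 0.00555). CACNA2D3 (chr3:54122547-55074557) had 0, 0, 0 and 3 counts in iEC and 12, 24, 37 and 29 in iREC, a ratio of 34.6 (exact 95% interval 11.5 to 171; edgeR, Benjamini-Hochberg adjusted p = 0.00366). CACNA2D1 (chr7:81946444-82443798), the widely expressed form that binds gabapentin, was at 12.7, 18.3, 14.1 and 17.2 CPM in iEC and 29.5, 34.5, 28.6 and 92.4 CPM in iREC. None of the 3 overlapped between the groups, and without iEC F no iEC count of CACNA2D3 remained, which leaves a bound of at least 8.61-fold above the floor of 3 counts in an average iEC library. For CACNA2D1 the log2 fold change was 1.57 ± 0.38 SE (edgeR, Benjamini-Hochberg adjusted p = 0.0159), and 0.98 with an adjusted p of 0.00393 without iREC F.

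CACNG8, CACNG7 and CACNG6 lie next to each other on chromosome 19, between 53909335 and 54012669, and their values lay in the same direction. CACNG8 (chr19:53963040-53990215), better known as an auxiliary subunit of AMPA receptors, was at 56.4, 72.6, 59.2 and 39.0 CPM in iEC and 14.2, 9.42, 19.8 and 7.14 CPM in iREC. It did not overlap between the groups, a 4.49-fold lower mean in iREC (log2 fold change -2.17 ± 0.32 SE, edgeR, Benjamini-Hochberg adjusted p = 0.00138), and was the most abundant calcium accessory gene per kilobase in iEC, at 6.49 CPM per kb. CACNG7, its close relative, had 44, 51, 30 and 8 counts in iEC and 2, 2, 0 and 0 in iREC. It did not reach the filter of the main test, and edgeR with no filter gave a Benjamini-Hochberg adjusted p of 0.00134.

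CACNG6 was at 1.89, 3.16, 2.96 and 6.30 CPM in iEC and 2.03, 1.499, 0.794 and 0.655 CPM in iREC. The groups overlapped, and its call was at the margin (log2 fold change -1.52 ± 0.49 SE, edgeR, Benjamini-Hochberg adjusted p = 0.0483). Among other losses, it did not hold with upper quartile scaling, no filter, limma-voom or protein-coding rows only (adjusted p 0.0505 to 0.0551), or with any of iEC D, E and F and iREC D, E and F left out (edgeR, adjusted p 0.0700 to 0.121). CACNB3 (chr12:48813794-48828941), a beta subunit, was at 29.8, 32.9, 36.6 and 39.7 CPM in iEC and 26.8, 19.9, 20.9 and 27.8 CPM in iREC (log2 fold change -0.54 ± 0.16 SE, edgeR, Benjamini-Hochberg adjusted p = 0.0336). The CACNB3 groups were separate but close, and the call was lost with no filter (adjusted p = 0.0585) and with any of iEC D, E and F and iREC D and E left out (edgeR, adjusted p 0.0518 to 0.104).

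**Figure D4:**
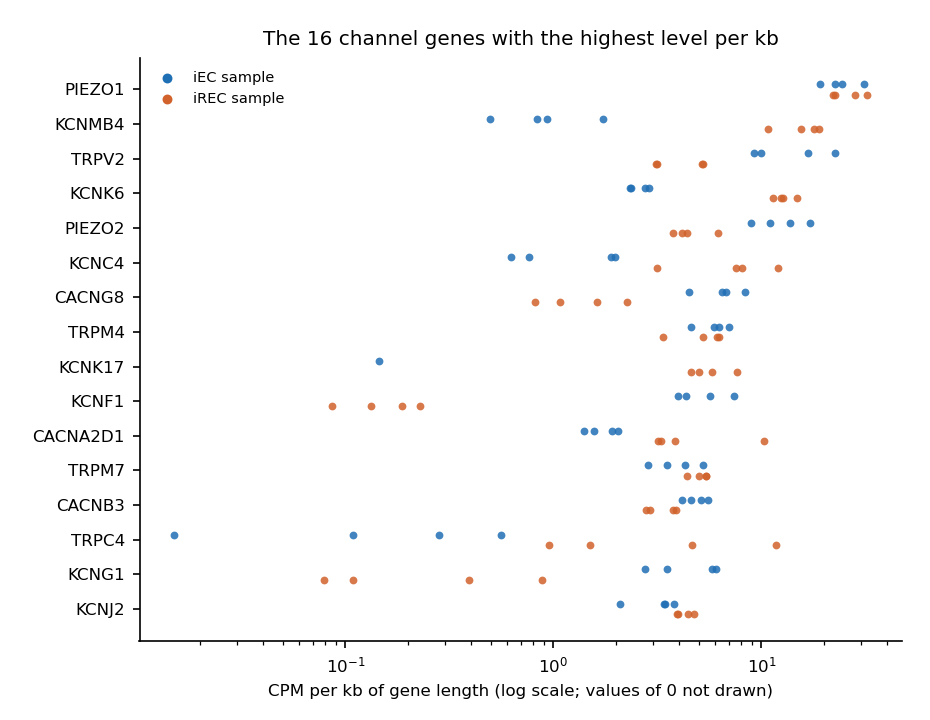
Level per kilobase of gene length (x axis, log scale, CPM per kb) of the 16 channel genes with the highest group mean; points are samples, and values of 0 (KCNK17 in iEC C, E and F) are not drawn. PIEZO1 is on top in both groups, KCNMB4, KCNK6, KCNC4 and KCNK17 stand higher in iREC, and TRPV2, PIEZO2, CACNG8, KCNF1 and KCNG1 stand higher in iEC.

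Some markers of other cell types ran with KCNMA1 and TRPC4 within the iREC group. In iREC C, D, E and F, PDGFRB, a marker of mural cells, measured 4.71, 27.1, 10.3 and 127 CPM and KRT8, an epithelial keratin, 98.6, 602, 195 and 3025 CPM. KCNMA1 and TRPC4 ran in that same order of samples, C, E, D and F from lowest to highest. PDGFRB and KRT8 were chosen after their values were seen. Of the same mural and epithelial lists, CSPG4, DES, KRT19 and CDH1 also followed that order. ACTA2, MYH11, NOTCH3, RGS5, KRT18 and EPCAM of these lists did not. The order was not particular to mural and epithelial markers. LIN28A of the pluripotency list, TTN and MYL7 of the cardiomyocyte list, and TUBB3, SNAP25 and STMN2 of the neuronal list followed it too. The remaining markers checked did not. CACNA2D1 was highest in iREC F too, but the other 3 iREC samples lay within 28.6 to 34.5 CPM. The part of such cells in these results was not tested, and in bulk RNA fewer cells of a type and less RNA per cell cannot be told apart.

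Over whole lists, the 7 mural markers summed to 145 to 213 CPM in iEC and 124 to 860 CPM in iREC, with 2 called higher and 1 lower. The 5 epithelial markers summed to 391 to 1171 and 301 to 4855 CPM. Of the 7 endothelial markers, PECAM1 and CDH5 were called lower and did not overlap between the groups, and CLDN5 was called higher. Their Benjamini-Hochberg adjusted p values in edgeR were 0.000632, 0.0298 and 0.049. Neuronal markers, 6 of 7 in the table, summed to 23.1 to 43.6 and 13.1 to 38.8 CPM, with 2 called higher (SNAP25 and STMN2) and 2 lower (SYT1 and TUBB3). SYT1, at a mean of 22.05 CPM in iEC and 2.13 in iREC, carried most of the iEC sum. Cardiomyocyte markers, 6 of 7 in the table, summed to 1.29 to 2.31 and 3.73 to 30.1 CPM, with TNNT2 and MYL7 at 0 in all iEC samples and MYH6 at 0 in all iREC samples. The pluripotency markers summed to 39.0 to 91.0 and 53.3 to 505 CPM. LIN28A, called higher, held 482 of the 505 CPM in iREC F, and DPPA4 was called lower. POU5F1, SOX2 and TDGF1 had means of 0.653, 0.132 and 0 CPM in iREC. The blood markers, 4 of 5 in the table, summed to 0 to 0.195 and 0.855 to 2.81 CPM. The mural, epithelial, cardiomyocyte and pluripotency sums were highest in iREC F. For KCNMB4, KCNC4 and KCNQ3, iREC F was the lowest iREC sample, at 52.5, 78.9 and 6.55 CPM. For KCNK6 it was neither the highest nor the lowest.

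**Figure D5:**
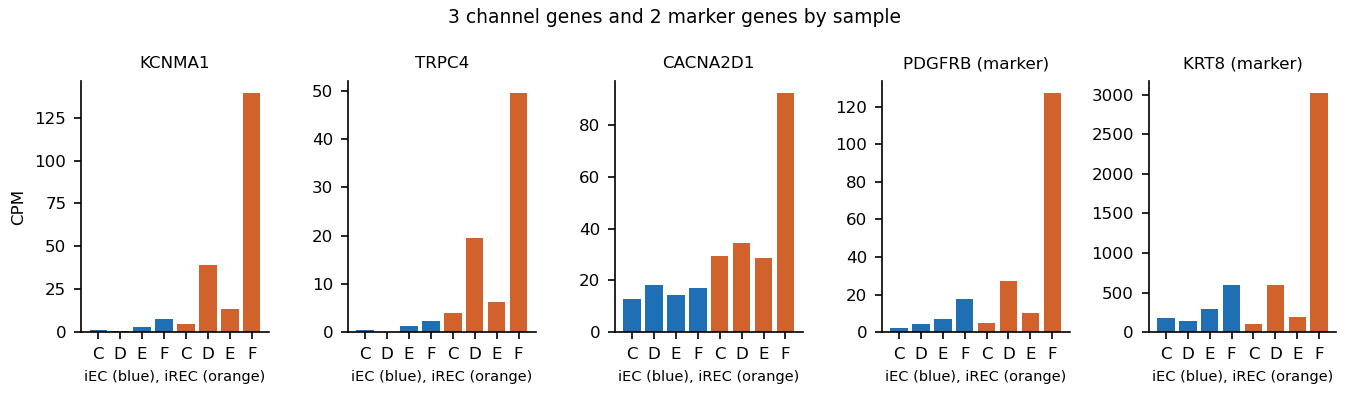
CPM of KCNMA1, TRPC4 and CACNA2D1 and of the markers PDGFRB and KRT8 in each sample (x axis, iEC blue, iREC orange; y axes start at 0 and differ by panel). The iREC F bar is the highest in each panel, at 139, 49.6, 92.4, 127 and 3025 CPM.

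Of 52 genes listed as other parts of the calcium and channel machinery, 48 were in the table and 36 were tested, with 9 higher in iREC, 8 lower and 19 not called (edgeR; background 13.2% higher and 11.7% lower), and a median log2 fold change of -0.046. Among the inositol trisphosphate receptors, which release calcium from the endoplasmic reticulum, ITPR1 rose from 17.6 ± 8.61 to 96.9 ± 33.1 CPM (SD, n = 4; edgeR, Benjamini-Hochberg adjusted p = 0.0012) and ITPR3 fell from 194 ± 32.6 to 78.8 ± 10.8 CPM (edgeR, Benjamini-Hochberg adjusted p = 0.000469). The samples of both genes were separate between the groups. ITPR2 was also called higher, at 74.8 against 50.3 CPM.

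Store-operated entry uses STIM sensors and ORAI pores. STIM2 fell from 57.6 ± 12.5 to 29.3 ± 0.658 CPM and CRACR2A, a regulator of that pathway, from 15.2 ± 4.64 to 5.06 ± 1.52 CPM (SD, n = 4; edgeR, Benjamini-Hochberg adjusted p = 0.00266 and 0.00399). ORAI1, the pore, was lower at 53.9 against 84.7 CPM (edgeR, Benjamini-Hochberg adjusted p = 0.0269). The ORAI1 call was lost without iEC E, iREC C, iREC D or iREC F (edgeR, adjusted p 0.0506 to 0.0737), and that of ORAI2 (adjusted p = 0.0474) in every fit without a sample. With all samples, ORAI2 also lost its call with DESeq2 size factors, upper quartile scaling, no filter, the stricter filter and protein-coding rows only (edgeR, adjusted p 0.0529 to 0.0751). STIM1, at 85.5 CPM in iEC and 87.3 in iREC, and ORAI3, at 9.85 and 8.75, were not called (edgeR, Benjamini-Hochberg adjusted p = 0.881 and 0.703).

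ATP2B1, a calcium pump of the plasma membrane, rose from 28.5 ± 5.02 to 94.8 ± 16.3 CPM, and PKD2, a cation channel of cilia and the endoplasmic reticulum, from 60.2 ± 5.98 to 157 ± 38.5 CPM (SD, n = 4; edgeR, Benjamini-Hochberg adjusted p = 0.000168 and 0.000555). The more abundant ATP2B4, of the same pump family, had a lower mean in iREC, 158 against 419 CPM. Its groups overlapped and it did not pass (edgeR, Benjamini-Hochberg adjusted p = 0.0602). It did pass as lower in DESeq2 (adjusted p = 0.0126), limma-voom (0.023), edgeR with no filter (0.0382) and edgeR without iREC F (0.000313). MDFIC, an auxiliary subunit of PIEZO channels, rose from 26.9 to 46.5 CPM (edgeR, Benjamini-Hochberg adjusted p = 0.00545). Its relative MDFI was lower, 12.6 against 21.5 CPM, with a call (adjusted p = 0.0423) lost in 7 of the 8 edgeR fits without a sample, all but that without iEC F. The MDFI call was also lost with library size alone (edgeR, adjusted p = 0.0511) and in limma-voom (0.0644). HCN4, the pacemaker channel, was at 0.585, 1.01, 0.8287 and 0.787 CPM in iEC and 0.916, 4.35, 2.02 and 53.6 CPM in iREC. The groups overlapped and iREC F stood far above the rest (log2 fold change 4.23, edgeR, Benjamini-Hochberg adjusted p = 0.0342). Without iREC F these were 1.58 and 0.0565, and the call was also lost in limma-voom (adjusted p = 0.249) and in edgeR without any 1 of the iEC samples (adjusted p 0.0668 to 0.0862).

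The authors' deposited table lists 36 members with an adjusted p under 0.05, or 28.3% of the 127, against 16.3% of all its rows. Of these, 26 were higher in iREC (20.5% of the members, against 9.33% of all rows in the authors' deposited table) and 10 lower (7.87% against 6.96%). It includes the 25 called here, with no opposite sign. Of those 36, 9 lay below the count filter used here. They include CACNG4 with 0, 0, 1 and 2 counts in iEC and 0, 29, 17 and 60 in iREC, KCND3 with 2, 9, 2 and 3 against 64, 11, 24 and 8, and KCNH1 with 1, 1, 1 and 0 against 15, 5, 5 and 7. CACNG4 and KCND3 were chosen for mention after their values were seen. KCNH1, CACNG7 and KCNK1 were named because they lay at or under the floor in every sample of 1 group and above it in every sample of the other.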

How the data were processed

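The authors deposited whole-number read counts per gene for 8 samples, with log2 fold changes, p-values and gene lengths. Per the submitters' processing notes, fastp and HISAT2 2.0.5 were used with hg38. The counting program and its strand setting are not given in the sources used here. Names, starts and ends of the 127 members equalled GENCODE 29. The table's 16 normalized or FPKM columns of single samples and 2 group-mean columns were not used.

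All rows were fitted in edgeR 4.0.16 (R 4.3.3): filterByExpr at its minimum count of 10, TMM scaling, quasi-likelihood test with group as the only term, and Benjamini-Hochberg adjustment over 15330 genes, with calls at an adjusted p under 0.05. The script was tested on simulated counts. CPM used TMM-scaled libraries, and levels were compared between genes per kilobase of the deposited gene length. For the tested members that share exonic bases with another gene, that length equalled all annotated exons merged. A single transcript can be shorter, so comparisons between genes depend on the length used. For genes with few counts in a group, the ratio of summed counts has an exact conditional 95% interval. Total counts per sample ran from 13739364 to 16971865, so genes near 3 counts are imprecise. Whether the same letter pairs samples across the groups could not be decided, and the main fit did not pair them. Promoters came from the RefSeq table on GRCh38.p14, matched by symbol for 92 of the 127 members.

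Members and gene lists were chosen with earlier results of these data known. The text names PIEZO1, KCNJ2, KCNN4 and TRPV4, every called member averaging 1 CPM or more in either group, the most abundant member per kilobase of each class and group, members above the floor in 1 group only, and up to 4 called partner genes in each direction averaging 10 CPM or more. TRPM7, TRPC1, KCNN2, KCNN3, KCNMB3, KCNJ6, KCNJ12, KCNJ15, KCND1, KCND2, KCND3, CACNG4, ITPR2, ORAI1, ORAI2, ORAI3, STIM1, ATP2B4 and MDFIC lie outside that rule and were added after their values were seen. The same holds for KCNJ3, CACNA1B and KCNIP2.

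Other settings tried were scaling by upper quartile, by DESeq2's size factors or by library size alone, testing without the filter or with a stricter one (1 CPM in every sample of either group, mean count 50), fitting with DESeq2 1.42.0, limma-voom (limma 3.58.1) or a newer quasi-likelihood fit, the replicate letter as a block, protein-coding rows alone, and dropping each sample in turn.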

Additional observations from a re-analysis of the deposited data

Results flagged for a closer look

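In 79 groups of 4 samples checked, chance alone marks about 5%. The check used log2 CPM with 2 counts added, while the values below are in plain CPM. For 6 of the groups, 1 sample lay far from the other 3 on that log2 scale. Its gap exceeded Dixon's 95% critical value as a share of the group's range. CACNA2D1, a calcium channel accessory gene, was at 92.4 CPM in iREC F and at 28.6 to 34.5 CPM in the other iREC samples. CACNA2D4, of the same family, was at 10.7 CPM in iEC F and at 3.85 to 4.05 CPM in the other iEC samples. KCNE3 was low in iREC F, at 5.04 CPM against 10.5 to 11.7 CPM, and KCNQ3 was low in iEC D, at 0.379 CPM against 0.910 to 1.07 CPM. KCNK17 in iEC D was at 0.316 CPM and KCNN4 in iREC C at 0.262 CPM, where the other 3 samples of each group were at 0, and these rest on 5 and 4 counts.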

How the results depend on the processing

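The 17 members called higher in iREC became 26 under DESeq2 and ran from 12 (stricter filter) to 24 (no filter) under the other alternatives with all samples. The 8 called lower ran from 6 to 10 and the 17 partner genes called from 13 to 17. With each sample left out, these counts ran from 15 to 19, 6 to 9 and 12 to 15. The fit with the replicate letter as a block gave 18, 7 and 14, without a call for CACNB3, CACNG6, HCN4, MDFI, ORAI1 and ORAI2 (edgeR, adjusted p 0.0552 to 0.118) and with one for KCNJ12, KCNIP2 and ATP2B4 (0.0171 to 0.0394). Same-letter samples had correlations of their deviations of 0.168, -0.079, 0.029 and 0.250, and the value for F was the highest of all pairs. Pairs of different letters ran from -0.221 to 0.178. With so few values, whether the letters pair the samples cannot be decided, and the main fit left the letter out. Of the 11 members called by DESeq2 and not by the filtered edgeR test, 9 lay below the count filter, and edgeR with no filter called 8 of those below it. Of 42 called genes checked, 31 kept their call in every alternative that tested them, and 6 of 21 uncalled genes gained one. No called gene changed sign. Signs of uncalled genes turned without single samples, over which the log2 fold change ran from -0.0058 to 0.25 for PIEZO1, -0.57 to 0.30 for KCNN2, -0.95 to 0.13 for KCNN3, -0.17 to 0.52 for KCND2, -0.33 to 0.12 for ORAI3 and -0.040 to 0.093 for STIM1. Fold changes of genes with few iEC counts (KCNK17, KCNH7, KCNIP1, KCNK5, CACNA2D3 and KCNMB1) moved by over 1.5 times without 1 sample; with no iEC count left, only the bound given with the gene applies. The cause of these changes was not tested. Depth limits the 76 members that were not tested, KCNN4 and TRPV4 among them.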
